A study of Mus musculus with 11 samples.

Results

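Solute carriers are membrane proteins that move ions, metals, amino acids, sugars, vitamins and other small molecules across the plasma membrane and the membranes of mitochondria, lysosomes and the Golgi. In neurons they recover neurotransmitters, hold osmolytes and amino acids inside the cell, set intracellular pH and chloride, and supply mitochondria with metabolites. The members described here are 32 transcripts of 31 genes whose symbols start with *Slc* and a number, out of 63244 transcripts in the deposited counts. They are the solute carriers among 1998 rows at hand of the study's list of transcripts, apart from 3 rows of *Slc44a5* and *Slc32a1* that the choice left aside. That list is ordered by the p-value of the comparison of sleep deprived with non-sleep deprived mice, so the members were chosen for a difference between the groups. Fold changes of the members are therefore descriptions and no test of them is given.

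RNA bound to tagged ribosomes was taken from hippocampi of male mice aged 2 to 3 months. All mice, controls included, were CaMKIIα-Cre:RiboTag animals, in which Cre driven by the CaMKIIα promoter adds an HA tag to the ribosomal protein Rpl22, which targets mainly excitatory neurons. The sleep deprived group (SD, 6 libraries) was kept awake by gentle handling for 5 h from the start of the light phase, and the non-sleep deprived group (NSD, 5 libraries) was collected at the same time. Animals had been handled by tapping and shaking of the cage on the days before. Each library pooled 2 mice. The labels name NSD replicates 2, 3, 4, 5 and B and SD replicates 1, 2, 3, 4, 6 and D, and p-values measure the spread between these pools. In bulk samples of this kind, fewer cells of a type and less RNA per cell cannot be told apart.

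The authors' raw counts covered between 22074914 and 29549339 reads on transcripts per library. Reads that overlapped several transcripts had been left out, so a value covers only sequence unique to that transcript, whose length is not known here, and levels are not compared between genes. Levels are given as CPM, the count of a transcript relative to the total of its library after upper-quartile scaling. Reads outside annotated transcripts made up 9.97% to 27.6% of a library, with the highest values in NSD replicate 2 (27.6%) and SD replicate 1 (21.1%). In NSD replicate 2, 12.3% of reads aligned to several places, and in the remaining libraries 5.88% to 6.23% did. Across all 29599 transcripts tested, 0.0507% passed edgeR's quasi-likelihood test of SD against NSD at FDR < 0.05.

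The members carried no names in the deposited counts. Each was named by its printed average abundance, which 1 transcript alone matched for all 32. The nearest named transcripts in the file, named from their abundance in the same way, lay on the same chromosome on at least 1 side for 32 of the 32 members and on both sides for 30. Members were found from row 15 to row 1979 of the list. The last one, *Slc25a29*, had a log2 fold change of 0.17, and solute carriers further down the list were not analysed here.

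In all, 17 members had a higher and 15 a lower fitted level in SD, with log2 fold changes from -0.39 to 0.80 and a median size of 0.22. Over all transcripts tested the median size was 0.16, and over the 1938 other listed transcripts, chosen for their p-value in the same way, it was 0.26. The share with a higher level in SD was 53.1% among the members and 56.8% among the other listed transcripts. Each of the 5 mitochondrial carriers was higher, as were 5 of the 8 members that move protons, bicarbonate and other ions. Both members of the nucleotide sugar family were lower. Neurotransmitter, osmolyte and amino acid transporters were divided evenly, with 4 higher and 4 lower. The plot of members by library shows these values.

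**Figure D1:**
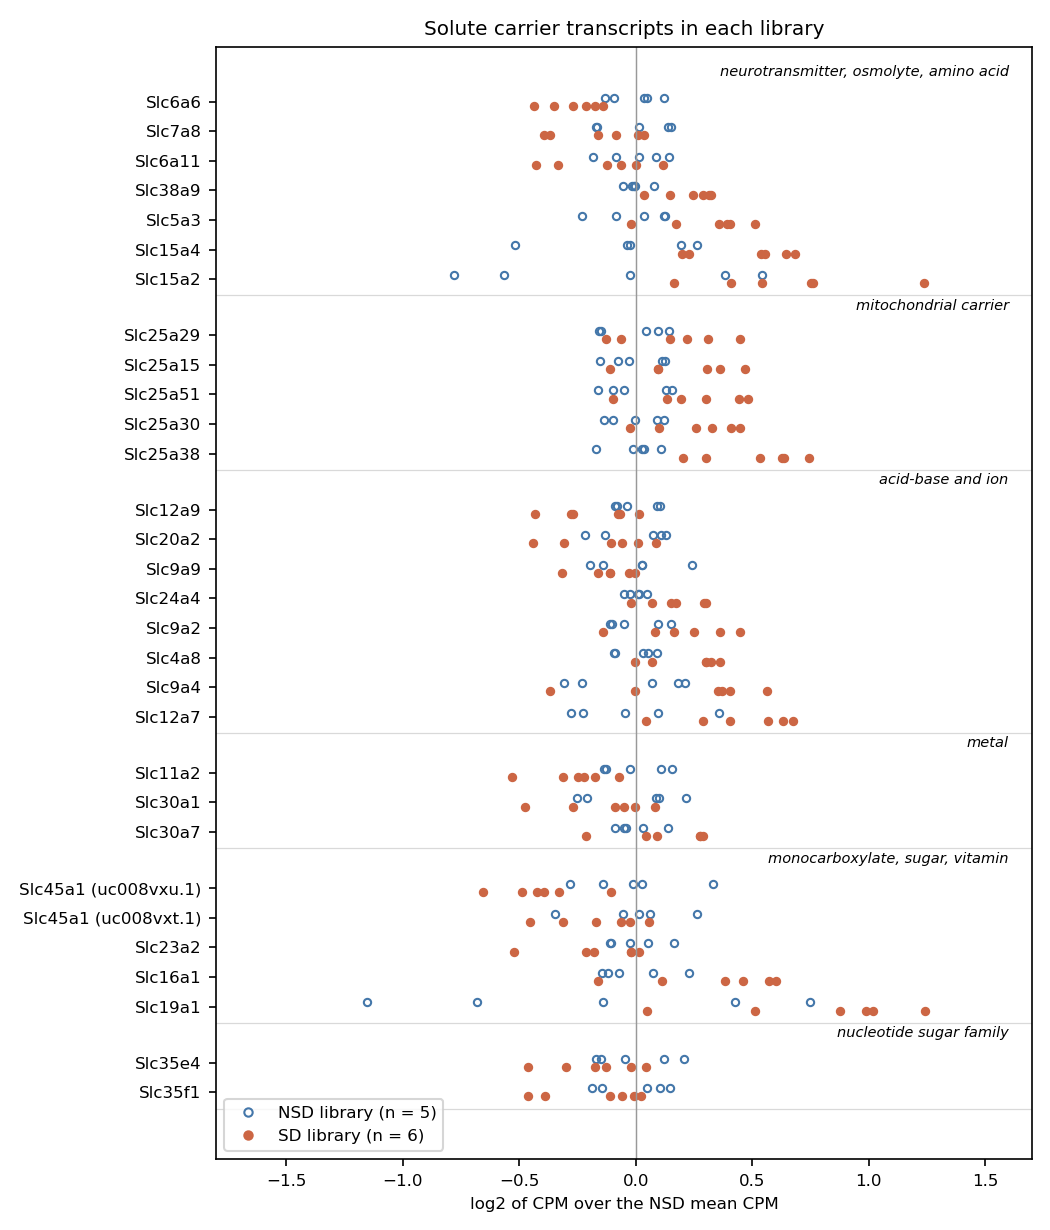
Each row is 1 of 30 solute carrier transcripts, grouped by role, and the horizontal axis is the log2 of the CPM of a library over the mean CPM of the 5 NSD libraries. Open blue points are NSD libraries and filled orange points are SD libraries. The groups are apart only for *Slc25a38* and *Slc6a6*, and *Slc19a1* and *Slc15a2*, the members with the fewest counts, have the widest spread.

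The groups did not overlap for 1 member that was higher in SD, *Slc25a38*, and 1 that was lower, *Slc6a6*. Over all transcripts tested, 0.459% were higher without overlap and 0.361% were lower without overlap. Among the other listed transcripts, 7.95% had no overlap in either direction, against 6.25% of the members.

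*Slc25a38* (uc009scc.1, mm10 chromosome 9, 120110374 to 120124504) encodes the mitochondrial glycine carrier, which supplies glycine to heme synthesis. Its level was 21.2, 24.5, 23.7, 25.8 and 24.4 CPM in NSD replicates 2, 3, 4, 5 and B. In the SD libraries it ranged from 27.6 to 40.0 CPM, with a median of 35.7 CPM. The lowest SD library, replicate 1, lay above the highest NSD library. Mean and standard deviation were 23.9 ± 1.67 CPM over the 5 NSD and 34.3 ± 4.85 CPM over the 6 SD libraries, which gave a log2 fold change of 0.52 with a standard error of 0.101. It was the largest difference among the mitochondrial carriers.

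The other mitochondrial carriers overlapped between the groups. *Slc25a51*, a carrier of NAD+, had 148.2 ± 14.4 CPM (mean and standard deviation, n = 5) without and 176.9 ± 25.5 CPM (n = 6) with sleep deprivation, and its log2 fold change was 0.26. *Slc25a30*, a relative of the uncoupling proteins, had a log2 fold change of 0.26 as well. *Slc25a15*, which exchanges ornithine for citrulline, and *Slc25a29*, a carrier of basic amino acids, had log2 fold changes of 0.22 and 0.17. Of the 6 SD libraries, 4 lay above every NSD library for *Slc25a51*, *Slc25a30* and *Slc25a29*, and 3 did for *Slc25a15*. SD replicate 1 was inside the NSD range for each of these 4 carriers. *Mpc1*, a subunit of the mitochondrial pyruvate carrier that is not a solute carrier by name, had 12.1 to 15.9 CPM in NSD and 11.04 to 13.5 CPM in SD, with overlap and a lower mean in SD.

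*Slc6a6* (uc009cyh.2, chromosome 6, 91684053 to 91759066) encodes the taurine transporter, and *Slc5a3* (uc007zyt.2, chromosome 16, 92058322 to 92087473) the sodium-coupled transporter of myo-inositol. Taurine and myo-inositol are organic osmolytes of brain cells. *Slc6a6* stood at 239.2, 263.9, 232.8, 277.5 and 261.3 CPM in the NSD libraries, in the order 2, 3, 4, 5 and B. In SD its lowest, median and highest values were 188.5, 215.8 and 231.1 CPM. All 6 SD libraries lay below the lowest NSD library, though SD replicate 4 was close to NSD replicate 4. On the log2 scale the difference was -0.26 with a standard error of 0.0882. A second *Slc6a6* transcript that the study's isoform list names, uc009cyg.2, had between 0.519 and 1.40 CPM in NSD and between 0.281 and 1.003 CPM in SD, and the groups overlapped.

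The osmolyte transporters thus differed in opposite directions. *Slc5a3* ranged from 150.6 to 193.1 CPM in NSD and from 174.5 to 252.1 CPM in SD, and 5 of the 6 SD libraries lay above every NSD library. SD replicate 1 was the exception. Its log2 fold change was 0.31 with a standard error of 0.104. Exons of *Slc5a3* overlap those of *Mrps6* on the same strand, so reads of the shared part could have been left out as ambiguous, and the same holds for *Slc25a51*, which overlaps *Gm25692*. *Akr1b3*, aldose reductase, which makes the osmolyte sorbitol, had 55.9 to 71.7 CPM in NSD and 47.6 to 67.2 CPM in SD, with overlap between the groups.

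**Figure D2:**
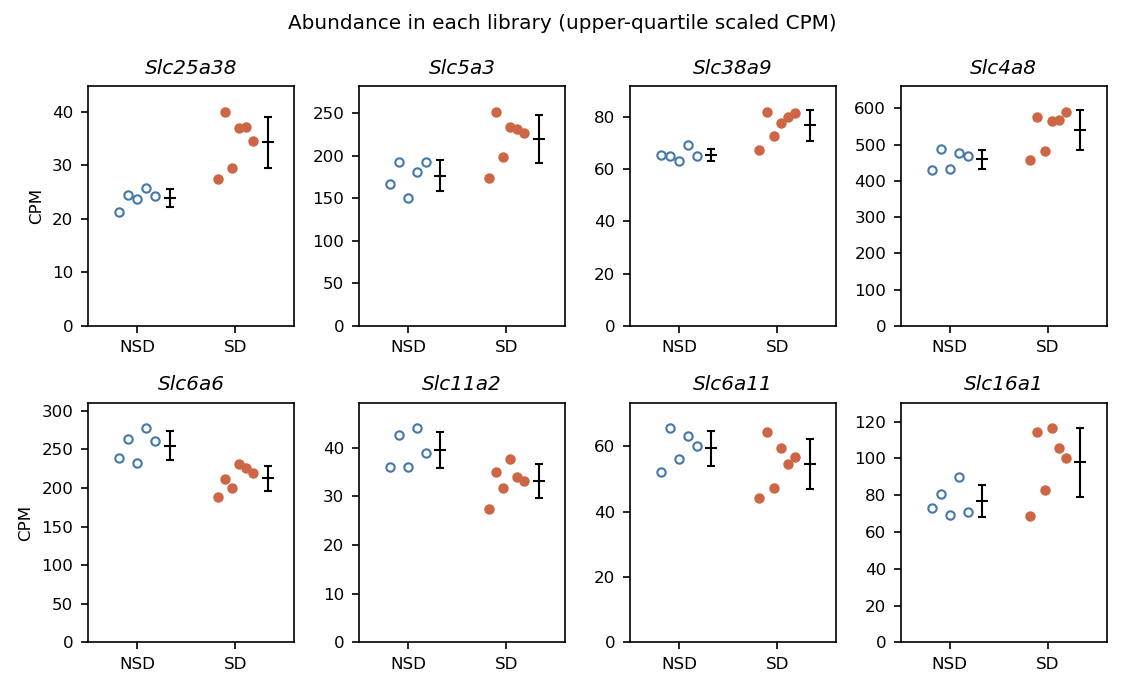
Each panel shows 1 transcript, with CPM on the vertical axis from 0, open blue points for the 5 NSD libraries, filled orange points for the 6 SD libraries, and the mean and SD of each group beside the points. *Slc25a38* and *Slc6a6* have no overlap, *Slc5a3*, *Slc38a9* and *Slc11a2* have 5 of 6 SD libraries beyond the NSD range, and for *Slc16a1* the SD range encloses that of NSD.

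*Slc38a9* (uc007rwo.2, chromosome 13, 112660751 to 112738749) encodes a lysosomal protein that reports arginine to the mTOR complex. It varied little in NSD, from 63.0 to 69.0 CPM, and ranged from 67.1 to 81.9 CPM in SD. Only SD replicate 1 lay inside the NSD range. The fitted log2 fold change was 0.23, with a standard error of 0.0804. The other transcript in the isoform list, uc007rwp.1, had 0.670 to 2.52 CPM in NSD and 0.465 to 2.11 CPM in SD, and the groups overlapped.

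Peptide and amino acid transporters completed this role group. *Slc15a4*, a lysosomal transporter of histidine and short peptides, had 1.99, 3.41, 2.79, 2.76 and 3.25 CPM in NSD replicates 2, 3, 4, 5 and B, and 3.26, 4.15 and 4.56 CPM as the lowest, median and highest SD values. The lowest 2 SD libraries lay within the NSD range. *Slc15a2*, a peptide transporter, rested on 9 to 39 counts in a library, with 0.372, 0.432, 0.931, 0.628 and 0.833 CPM in NSD and 0.717, 1.004 and 1.505 CPM as lowest, median and highest SD values. The NSD range reached into the lower part of the SD range. Its log2 fold change of 0.67 had a standard error of 0.283. *Slc7a8*, a light chain of a neutral amino acid exchanger, was lower in SD, with a log2 fold change of -0.15 and overlap of the groups.

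*Slc6a11*, the GABA transporter typical of astrocytes, had 52.2, 65.5, 56.1, 63.0 and 60.04 CPM in NSD and 44.1, 55.7 and 64.4 CPM as lowest, median and highest value in SD. Only 2 SD libraries, replicates 1 and 3, lay below every NSD library. Its log2 fold change was -0.13, with overlap. *Abat*, the enzyme that breaks GABA down, had 23.3 to 29.8 CPM in NSD and 18.3 to 27.7 CPM in SD.

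Marker and partner genes could be read only where the study's p-ordered list names them. All of them, *Mpc1*, *Akr1b3* and *Abat* included, were thus, like the members, selected for a difference between the groups. The inhibitory neuron genes read in this way had lower means in SD and varied widely between libraries. The main *Gad2* transcript (uc008ink.1), which encodes a GABA-synthesizing enzyme, had 20.4, 43.1, 77.8, 36.0 and 92.2 CPM in the NSD libraries and 13.5 to 42.7 CPM in SD, a log2 fold change of -1.39. The highest *Gad2* values were those of NSD replicates B and 4 and, within SD, of replicate 2. The vesicular GABA transporter *Slc32a1* was at 1.16 to 5.12 CPM in NSD and 0.540 to 2.66 CPM in SD, a log2 fold change of -1.65. For both, 5 of the 6 SD libraries lay below every NSD library. Of 12 inhibitory neuron markers, 4 genes with 6 transcripts had a name, and 0 of the 6 had groups without overlap. All 6 had a negative log2 fold change, from -0.64 to -1.90, each larger in size than that of any member that was lower in SD. Their summed level was 23.2 to 104.3 CPM in NSD and 15.6 to 48.5 CPM in SD. The other 8 markers were not analysed here, and the part of inhibitory neuron RNA in the members' values was not tested. Of the 7 astrocyte markers only *Slc6a11* itself had a name, and of the 4 microglia markers 0. *Camk2a* was the only named one of 4 excitatory neuron markers, through 1 transcript (uc008fbh.2). This transcript had 2.32 to 2.76 CPM in NSD and 1.48 to 2.31 CPM in SD, without overlap. It rested on 35 to 66 counts in a library and covers only sequence unique to it, so it does not give the level of the whole gene.

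Of the 8 acid-base and ion transporters, 5 were higher and 3 lower in SD. *Slc4a8* (uc007xse.1, chromosome 15, 100761747 to 100823968), a sodium-driven exchanger of chloride for bicarbonate in neurons, had 431.3 to 489.4 CPM in NSD and 458.9 to 591.1 CPM in SD. SD replicates 1 and 3 lay within the NSD range and the other 4 above it. This gave a log2 fold change of 0.23, with a standard error of 0.0978. *Car2*, a cytosolic carbonic anhydrase that produces bicarbonate, had 45.9 to 49.2 CPM in NSD and 53.3 to 60.5 CPM in SD. It was the only 1 of the 6 named genes, out of 16 partners of these transporters looked for, whose groups did not overlap.

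The sodium-proton exchangers *Slc9a4* and *Slc9a2* are neighbours on chromosome 1, with 49848 bases between them. Both had a higher mean in SD. *Slc9a4* ranged from 43.5 to 62.4 CPM in NSD and from 41.8 to 79.6 CPM in SD, and *Slc9a2* from 46.1 to 55.3 CPM and from 45.2 to 67.9 CPM. In each case 4 SD libraries lay above every NSD library and SD replicate 1 lay below every one. The endosomal exchanger *Slc9a9*, on chromosome 9, had a log2 fold change of -0.12 instead, which was -0.06 without NSD replicate 5.

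Among the cation-chloride cotransporter family, *Slc12a7*, which carries potassium and chloride out of cells, had 2.23, 2.46, 1.90, 1.97 and 2.96 CPM in NSD and 2.38, 3.23 and 3.68 CPM as lowest, median and highest SD values. Its log2 fold change of 0.45 had a standard error of 0.176, and 4 SD libraries lay above the NSD range. *Slc12a9*, a relative without a settled substrate, had a log2 fold change of -0.18. *Slc24a4*, a potassium-dependent exchanger of sodium for calcium, was tightly grouped in NSD at 23.4 to 25.1 CPM and ranged from 23.9 to 29.8 CPM in SD. *Slc20a2*, a sodium-coupled phosphate transporter, had a log2 fold change of -0.12, which was -0.08 without SD replicate 1.

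Metal transporters differed in direction. *Slc11a2* (uc007xrd.2, chromosome 15, 100387898 to 100425072) imports iron and other divalent metals. It had 36.0 to 44.0 CPM in NSD and 27.3 to 37.6 CPM in SD, and 5 of the 6 SD libraries lay below every NSD library. SD replicate 4 was the exception. Its fold change was -0.25 on the log2 scale, with a standard error of 0.0928. A second transcript, uc007xrc.2, had 2.81 to 3.60 CPM in NSD and 2.58 to 3.66 CPM in SD, the SD range enclosing that of NSD.

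Further iron and zinc genes were read beside it. *Tfrc*, the transferrin receptor that delivers iron to endosomes, had 6.001 to 7.96 CPM in NSD and 2.96 to 6.11 CPM in SD, with an overlap from 1 SD library. The zinc exporter *Slc30a1* and the Golgi zinc transporter *Slc30a7* had log2 fold changes of -0.12 and 0.14. That of *Slc30a1* was -0.07 without NSD replicate 5 or without SD replicate 1. *Mtf1*, the zinc-sensing transcription factor, had 0.503 to 0.660 CPM in NSD and 0.287 to 0.510 CPM in SD, with 5 SD libraries below the NSD range.

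Transporters of monocarboxylates, sugars and vitamins were mixed. *Slc16a1* (uc008qui.2, chromosome 3, 104638668 to 104658462) carries lactate and pyruvate and is strongly expressed in brain endothelium. Its NSD values were 73.0, 80.9, 69.5, 89.9 and 70.7 CPM, and its lowest, median and highest SD values 68.7, 102.9 and 116.4 CPM. The NSD range lay inside that of SD, since replicate 1 was below it and 4 libraries above it. Its log2 fold change of 0.35 had a standard error of 0.123. The endothelial lipid transporter *Mfsd2a*, the only other one of 6 endothelial markers with a name, had 6.25 to 6.83 CPM in NSD and 8.03 to 12.6 CPM in SD, without overlap, and its part in the *Slc16a1* values was not tested. *Mbp*, a myelin gene and the only one of 5 oligodendrocyte markers with a name, had 167.4 to 194.8 CPM in NSD and 178.2 to 229.8 CPM in SD.

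*Slc19a1*, the reduced folate carrier, had the largest log2 fold change of all members, 0.80, and the largest standard error, 0.364. It had 0.372, 0.173, 0.466, 0.251 and 0.125 CPM in NSD and 0.287, 0.530 and 0.656 CPM as lowest, median and highest SD values, from 3 to 17 counts in a library. Counting error is large at this depth. *Slc23a2*, a sodium-coupled vitamin C transporter, had a log2 fold change of -0.15.

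*Slc45a1*, a proton-coupled sugar transporter, is the only gene with more than 1 member. The transcript uc008vxu.1 had 5.30, 4.71, 4.27, 5.15 and 6.54 CPM in NSD and 3.29, 3.91 and 4.82 CPM as lowest, median and highest SD values, and 5 SD libraries lay below the NSD range. Its log2 fold change was -0.39, the lowest of all members. For uc008vxt.1 the values were 22.0, 23.9, 18.002, 27.4 and 23.1 CPM in NSD and 16.7, 21.1 and 23.8 CPM in SD. That transcript had a log2 fold change of -0.15, in the same direction, with a wide overlap. The members *Slc35f1* and *Slc35e4* of the nucleotide sugar family, with no settled substrate, had log2 fold changes of -0.16 each.

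In this fit the level of most members followed a property of the libraries that the labels do not name. A model that held the group and, for each library, the share of its reads lying outside annotated transcripts was fitted to all transcripts, and the slope on that share was tested with edgeR's quasi-likelihood test. It was negative for 31 of the 32 members and passed FDR < 0.05 for 20, all of them lower where the share was higher. Over all transcripts tested, 17.6% were lower with the share and 14.1% were higher, and among the other listed transcripts 40.3% were lower. The median CPM, which sets the precision of a slope, was 48.7 for the members, 15.6 for the other listed transcripts and 0.946 for all transcripts tested. The members were chosen for a small p-value, which favours a small spread within groups. The steepest slope past the threshold was that of *Slc9a4*, -0.24 on the log2 scale for each SD of the share across libraries (FDR = 0.000148 from edgeR's test). *Slc30a1* had a slope of -0.17 (FDR = 0.00114 from edgeR's test), and *Slc25a38* one of -0.14 (FDR = 0.0071 from edgeR's test). *Slc38a9*, with a slope of -0.05, and *Slc24a4*, with -0.04, did not pass the test.

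This count depended on the settings of the fit. With TMM normalization, 9 of 32 members were lower with the share, against 8.91% of all transcripts tested and 17.3% of the other listed ones. With DESeq2 in place of edgeR it was 14, against 13.2% and 28.6%. With edgeR's filterByExpr it was 4 of 32, against 7.35% and 8.74%, and with at least 10 counts in every library it was 2 of 30, against 5.62% and 5.48%, and 1 more member was higher. Under both filters the share of members called lower was thus near the background. The median slope of the members was -0.033 with filterByExpr and -0.024 with the count minimum, against 0.023 and 0.011 over all transcripts. Under these filters more transcripts were called higher than lower with the share, 22.6% with filterByExpr and 21% with the count minimum. Transcripts called higher were 15.7% with TMM and 13.9% with DESeq2. The slope was negative for 27 members with TMM, 30 with DESeq2, 25 with filterByExpr and 23 with the count minimum. Without SD replicate 1 the count was 9, against 9.53% of all transcripts lower and 7.64% higher, and without NSD replicate 2 it was 24, against 23.2% lower and 18.7% higher. The upper-quartile factors ranged from 0.892 to 1.19 and the TMM factors from 0.930 to 1.10, and for both the highest was that of SD replicate 1 and the lowest that of SD replicate 4.

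**Figure D3:**
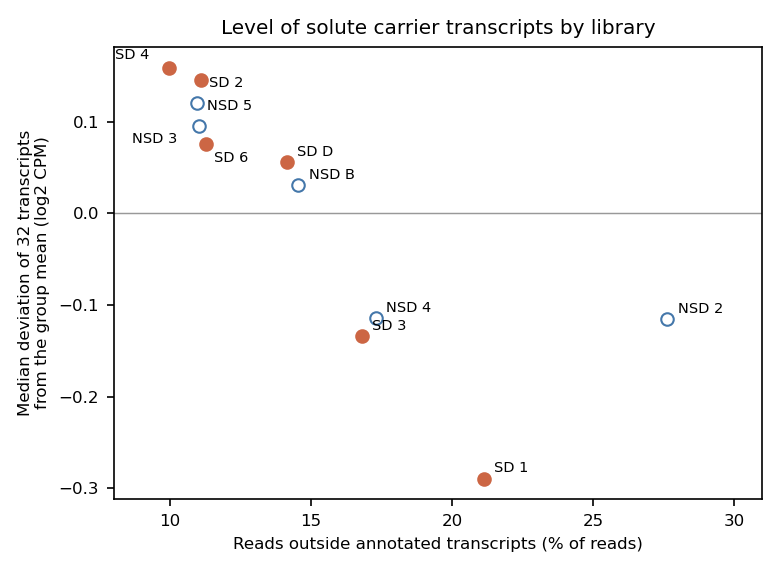
Each point is 1 library, with the percentage of its reads outside annotated transcripts on the horizontal axis and the median deviation of the 32 members from their group mean, in log2 CPM, on the vertical axis. SD replicate 1, at 21.1%, has the lowest median deviation, -0.29, and SD replicate 4, at 9.97%, the highest, 0.16, while NSD replicate 2, at 27.6%, lies at -0.12.

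Within SD, replicate 1 had the lowest value for 27 of the 32 members, and within NSD, replicate 2 had it for 16 and replicate 4 for 14. With TMM scaling these numbers were 16, 13 and 9. With CPM by the total count alone they were 6, 5 and 4. The number of members without overlap between the groups moved with the scaling too. With TMM it was 7, of which 4 were higher (*Slc25a38*, *Slc38a9*, *Slc4a8* and *Slc24a4*) and 3 lower (*Slc6a6*, *Slc11a2* and *Slc23a2*). Over all transcripts tested 0.811% were then higher and 0.564% lower without overlap. By total count it was 12, with 6 higher (*Slc25a38*, *Slc5a3*, *Slc4a8*, *Slc25a51*, *Slc9a2* and *Slc25a30*) and 6 lower (*Slc6a6*, *Slc11a2*, *Slc35f1*, *Slc7a8*, *Slc20a2* and *Slc23a2*), against 1.38% higher and 0.828% lower of all transcripts. *Slc25a38* and *Slc6a6* had no overlap under any of these scalings.

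Without NSD replicate 2 and SD replicate 1, a setting chosen after seeing the data, 6 members were higher without overlap and 1 was lower. These were *Slc25a38*, *Slc5a3*, *Slc38a9*, *Slc4a8*, *Slc25a51*, *Slc24a4* and, lower, *Slc6a6*. Among all transcripts then tested 1.62% were higher and 1.18% lower without overlap, and among the other listed transcripts 24.6% had no overlap, against 21.9% of the members.

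With the share of reads outside annotated transcripts as a covariate, all 32 members kept the sign of their fold change, as did all 1938 other listed transcripts and 24886 of the 29599 tested. The standard error was smaller for 31 of the 32, the exception being *Slc19a1*, and for 1791 of the 1938 other listed transcripts. The size of the fold change was larger for all 15 members that were lower in SD and smaller for 16 of the 17 that were higher, again with *Slc19a1* as the exception. In all it was larger for 16 of the 32 members and for 751 of the 1938 other listed transcripts. *Slc25a38* had a log2 fold change of 0.46 in this fit and *Slc6a6* one of -0.30. *Slc9a4* went from 0.25 to 0.14 and *Slc30a1* from -0.12 to -0.19.

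**Figure D4:**
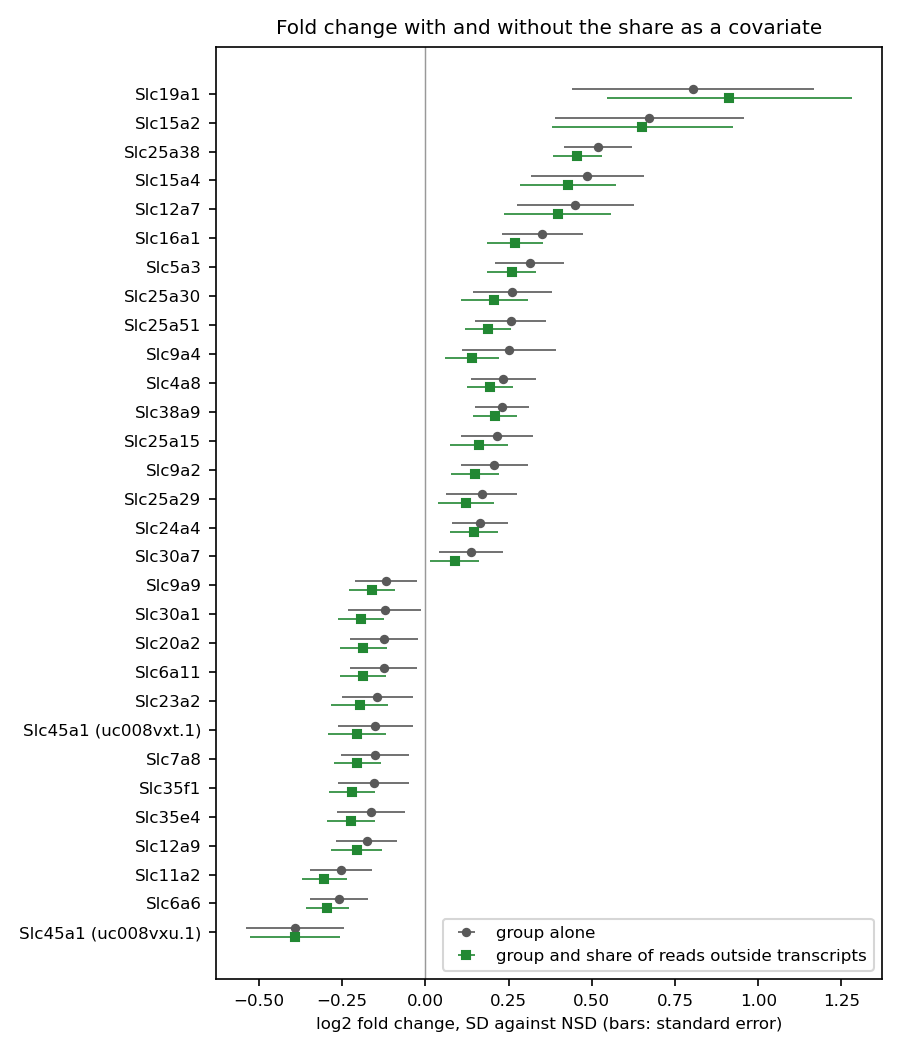
The horizontal axis is the log2 fold change of SD against NSD with its standard error, for 30 members. Grey circles come from the fit with the group alone and green squares from the fit that also holds the percentage of reads outside annotated transcripts. No member changes sign between these fits.

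The labels give letters in place of numbers to 1 library of each group, NSD replicate B and SD replicate D. With the group in the model, 0 of the 29599 transcripts differed between lettered and numbered libraries at FDR < 0.05 by edgeR's quasi-likelihood test, and DESeq2 called 0 as well. At an unadjusted p below 0.05 there were 459, of which 0 were members.

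In position, the members are scattered over the genome, and some are close neighbours. Besides *Slc9a4* and *Slc9a2*, *Slc11a2* and *Slc4a8* lie on chromosome 15, 336674 bases apart, and *Slc25a15* and *Slc20a2* on chromosome 8, 78190 bases apart. The *Slc9* neighbours had fold changes of the same sign, and both of the other pairs had opposite signs. Exons of *Slc6a6*, *Slc11a2*, *Slc38a9*, *Slc15a4*, *Slc20a2*, *Slc9a4*, *Slc30a1* and *Slc30a7* overlap those of a gene on the other strand, and since the strand setting of the counting is not given in the sources used here, reads of the overlapping parts cannot be assigned with certainty.

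Promoter sequences in RefSeq's annotation of GRCm38.p6 were at hand for 22 of the 31 genes. The 250 bases before each start were searched on both strands for CACGTG, the E-box bound by factors of the clock and of growth control, for TGACG, a core of the cAMP response element, and for TGCNCNC, the core of the metal response element. CACGTG was present in the promoters of 22.7% of these genes, 5 of 22, against 6.86% of all 27025 genes with a promoter in the table. Shares over all genes were taken whether or not a gene was detected in these libraries, and were not computed for detected genes alone. Of these 5, *Slc16a1*, *Slc25a15*, *Slc24a4* and *Slc12a7* were higher in SD and *Slc12a9* was lower. TGACG was present for 2 (*Slc23a2* and *Slc15a2*), against 19.8% of all genes. TGCNCNC was present for 14, *Slc30a1* among them, against 47.2% of all genes. The stretches with CACGTG that lie outside annotated exons are shown because, of the motifs searched, this one had the largest ratio of its share among the members to that among all genes, with the motif in capitals and each read 5′ to 3′ on the strand of the gene. They are chr3:104638437-104638496 (plus strand) for *Slc16a1*, chr8:22398322-22398381 (minus) for *Slc25a15*, chr13:73763632-73763691 (plus) for *Slc12a7* and chr5:137333656-137333715 (minus) for *Slc12a9*. The *Slc24a4* window overlaps an annotated exon and is not shown. A match describes these letters alone.
Slc16a1: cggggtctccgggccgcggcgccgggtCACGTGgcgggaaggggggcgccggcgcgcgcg
Slc25a15: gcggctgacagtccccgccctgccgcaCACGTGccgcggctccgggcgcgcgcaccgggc
Slc12a7: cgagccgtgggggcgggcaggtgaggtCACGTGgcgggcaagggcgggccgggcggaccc
Slc12a9: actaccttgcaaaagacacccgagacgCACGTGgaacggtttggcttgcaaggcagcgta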

How the data were processed

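The deposited values are raw counts per UCSC transcript. Per the labels and the methods, the authors trimmed reads with Trimmomatic 0.36, aligned them to mm10 with STAR 2.7.5 and counted them with HTSeq in intersection-nonempty mode, leaving ambiguous reads uncounted. Rows that name no transcript were left out of tests. The ambiguous tally held 37.2% to 52.0% of the reads of each library. The gene model version is not given in the sources used here. The members and gene lists were chosen with earlier results of these data known.

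Names came from the study's transcript list. An edgeR fit on all rows (5 tallies kept, filterByExpr, TMM, likelihood ratio test, 19141 rows) was run, and a listed row was named where 1 row had an equal printed logCPM, as held for 1970 of 1998 rows. Columns of the authors' own comparisons (fold change, likelihood ratio, p-value, FDR) were not used.

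Differential expression was fitted with edgeR 4.0.16 in R 4.3.3 on the 29599 transcripts detected (1 count or more) in 5 or more libraries, tallies left out, with upper-quartile factors, the quasi-likelihood test and Benjamini-Hochberg adjustment. The standard error is the fold change over the root of the F statistic. All libraries entered each fit. Alternatives were TMM, DESeq2 1.42.0, the likelihood ratio test, other filters, covariates, a replicate block and leaving out each library. The functions were tested on simulated data. Of the members, 2 enter the counts but are not reported here by name. The others are named, and those without overlap, the next 5 by size, members that mark other cell types and both *Slc45a1* transcripts are given by each NSD library and by the lowest, median and highest SD library. Gene positions are those of GENCODE vM21. Plots used matplotlib 3.10.9 (Python 3.11.15).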

Additional observations from a re-analysis of the deposited data

How the results depend on the processing

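Each of the 32 members kept the sign of its fold change in every alternative that gave a value, and the 702 values obtained lay within 1 SD of the spread between libraries. These directions follow in part from the choice of members. Small fold changes came close to 0: with the replicate block that of *Slc30a1* was -0.0012, of *Slc9a9* -0.03 and of *Slc20a2* -0.05. Leaving out 1 library also moved *Slc45a1* uc008vxt.1 to -0.08 (without NSD 5) or -0.23 (NSD 4), *Slc30a1* to -0.19 (NSD 4), *Slc6a11* to -0.08 and *Slc23a2* to -0.09 (SD 1), and *Slc25a29* to 0.10 (SD 4). Depth limits *Slc19a1* and *Slc15a2* most, which fall out where at least 10 counts in every library are required.

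The number of transcripts called for SD against NSD, 15 (13 higher, 2 lower), was 62 with TMM (51 and 11), 135 with DESeq2 (93 and 42), 65 with the likelihood ratio test (37 and 28), 191 with filterByExpr (132 and 59), 311 with a minimum of 10 counts throughout (200 and 111), 33 with 1 count in 1 library (11 and 22), 8 with the label series and 167 with the share of reads outside transcripts as a covariate (85 and 82), and 28 at FDR 0.1. Without 1 library it ranged from 0 to 78: 78 without SD replicate 1, 8 without SD 3, 6 without SD 6, 2 without NSD 4, 1 without NSD B and 0 without SD D (edgeR, 1178 at an unadjusted p below 0.05). Without both NSD 2 and SD 1, a setting chosen after seeing the data, it was 57 (42 and 15). With the replicate block over the libraries numbered 2, 3 and 4 it was 0 by edgeR's quasi-likelihood test (467 at an unadjusted p below 0.05), and 2 in these libraries without the block. Deviations of same-numbered libraries from their group means correlated with -0.26, -0.287 and -0.356, and no library correlated best with its own number. Many transcripts followed the share of reads outside transcripts, so these correlations cannot settle whether the numbers mark paired libraries.

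The number of transcripts that followed the share, 9393, was 5767 with filterByExpr and 4188 under the minimum of 10 counts, and ranged from 4994 (without SD 1) to 12239 without 1 library. The number of members among them, 20, was 9 with TMM (8.91% of all transcripts lower), 4 with filterByExpr (7.35% lower), 3 under the minimum of 10 counts (2 lower and 1 higher, against 5.62% lower and 21% higher), and 9 to 24 without 1 library (9.53% lower without SD 1, 23.2% without NSD 2). Members without overlap, 2 (of all transcripts 0.459% higher and 0.361% lower), were 7 with TMM (0.811% and 0.564%), 12 by total count (1.38% and 0.828%) and 7 without NSD 2 and SD 1 (1.62% and 1.18%), so the share over all transcripts was larger in each of these settings too. The last of these settings has fewer libraries in each group, which by itself makes groups without overlap more frequent. The cause was not tested.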
